A study of Mus musculus with 39 samples.

Results

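The 31 nuclear genes for the subunits of respiratory complexes II to IV, together with cytochrome c, were followed in bulk RNA-seq of sciatic nerve endoneuria. The genes were taken by symbol from a list of the family, which was drawn up with earlier results of these data known, and all 31 were found among the 55573 genes of the count tables. They comprise 4 genes of complex II, 10 of complex III and cytochrome c, and 17 of complex IV. Of these, 30 passed the filter on low counts and were tested, while *Cox8b*, the muscle and brown fat form of subunit VIII, did not pass. Gene positions are given on GRCm38.

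Complex II (succinate dehydrogenase) passes electrons from succinate to ubiquinone, complex III passes them from ubiquinol to cytochrome c, and complex IV (cytochrome c oxidase) passes them to oxygen. Complexes III and IV pump protons, complex II does not. Complex II is built from nuclear genes alone, whereas complexes III and IV combine nuclear subunits with catalytic cores that mitochondrial DNA encodes (cytochrome b in complex III, and the subunits made from *mt-Co1*, *mt-Co2* and *mt-Co3* in complex IV). Several complex IV subunits exist as a ubiquitous form and a form typical of muscle, lung or testis. Schwann cells, the glia of the nerve, change from myelination to a repair state after a crush and later remyelinate the regrown axons.

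Control mice (*Lepr*-ctrl) were Leprfl/fl, that is, they carried floxed alleles of the leptin receptor gene and no recombinase. *Lepr*-cKO mice were Leprfl/fl::Dhh-Cre, in which Dhh regulatory sequences drive Cre. The paper describes the deletion as selective to Schwann cells, which the data used here do not test. Mice of either genotype were on a C57BL/6 background, of both sexes and 2 to 4 months old. A sciatic nerve was crushed once, and the distal endoneurium of that nerve (injured) and of the uncrushed nerve of the other side (healthy) was sampled at 2 or 4 weeks post-crush (wpc). At 2 wpc, there were 5 healthy and 5 injured *Lepr*-ctrl nerves, and 6 healthy and 5 injured *Lepr*-cKO nerves. At 4 wpc, there were 5 healthy and 4 injured nerves of each genotype. Mice sampled at 2 and 4 wpc were different animals, so time and cohort cannot be told apart.

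Total counts per library ranged from 10905806 to 45016322 (median 27752451) and the lowest was that of an injured *Lepr*-ctrl nerve at 4 wpc. Levels are given as CPM, that is, counts relative to the library total after TMM scaling, and a difference between groups as a log2 fold change ± its standard error from an edgeR fit over 38 libraries and 18394 genes. A member is said to have risen or fallen where the p adjusted over all genes tested was under 0.05. The injured *Lepr*-cKO nerve SLRKO2wpc126i at 2 wpc is shown apart and entered no group value. Its 15 skeletal muscle markers summed to 53470 CPM, against 8.8 to 48.9 CPM in the 38 other libraries, and its *Cox6a2*, *Cox7a1* and *Cox8b* levels were 196, 50.9 and 62.9 CPM. Single libraries are named by the code in their label, which holds the number of the mouse and ends in i for the injured and c for the healthy nerve. In bulk tissue, fewer cells of a type and less RNA per cell cannot be told apart. Myelin genes marked the tissue, with 81850 to 117800 CPM summed over 8 markers of myelinating Schwann cells in healthy nerves and 10170 to 73850 CPM in injured nerves. The macrophage list rose over the same comparison, from 141.6 to 492.6 CPM in healthy to 1615 to 5448 CPM over 10 markers in injured nerves, and the part of either change in the results below was not tested.

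*Lepr*, the targeted gene, was at 31.9, 65.7, 66.1, 36.6 and 68 CPM in injured *Lepr*-ctrl and 31.2, 76.3, 122.8 and 63 CPM in injured *Lepr*-cKO nerves at 2 wpc. At 4 wpc, its levels were 71.5, 38.1, 20.6 and 47 and 30.5, 29.8, 23.7 and 36.5 CPM, respectively. The groups overlapped at both times, and the genotypes did not differ past the threshold (log2 difference 0.45 ± 0.31, adjusted p = 0.943 at 2 wpc, and -0.55 ± 0.33, adjusted p = 0.335 at 4 wpc). The counts are summed over the whole gene and over all cells of the nerve, so they are no check of a deletion of part of the gene in Schwann cells.

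Crush raised most of the 30 tested subunit transcripts, by amounts that were small beside those of many other genes. In *Lepr*-ctrl nerves, 19 members rose and 4 fell at 2 wpc, and 23 rose and 2 fell at 4 wpc. The background in those comparisons was 35.1% of all tested genes higher and 30.7% lower at 2 wpc, and 32.7% higher and 32.3% lower at 4 wpc. In *Lepr*-cKO nerves, 16 rose and 4 fell at 2 wpc (35.4% higher and 29.6% lower over all genes), and 20 rose and 3 fell at 4 wpc (30.2% and 27.1%). At 2 and 4 wpc, the median log2 fold change of the members was 0.39 and 0.76 (*Lepr*-ctrl) and 0.31 and 0.53 (*Lepr*-cKO), where the median over all genes lay between 0.01 and 0.09. Where fold changes of a gene are given in pairs without a name, the first is that of *Lepr*-ctrl and the other that of *Lepr*-cKO mice.

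Few members changed more than 2-fold. With an absolute log2 fold change above 1 required as well, 4 members were called in *Lepr*-ctrl at 2 wpc against 34.6% of all genes, 8 at 4 wpc against 36.5%, and 4 in *Lepr*-cKO nerves at each time against 34.6% at 2 wpc and 28.2% at 4 wpc. In *Lepr*-ctrl, every injured nerve lay above every healthy nerve for 11 members at 2 wpc (24.2% of all genes) and 22 at 4 wpc (27.2%), and below for 4 (23.8%) and 2 (27.9%). In *Lepr*-cKO, the corresponding numbers were 13 above (24.4%) and 4 below (23.7%) at 2 wpc, and 12 above (20.8%) and 2 below (21.3%) at 4 wpc.

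Across the 4 injury comparisons, 14 members rose in all 4, namely *Sdhd*, *Uqcrfs1*, *Uqcrb*, *Uqcrq*, *Uqcrh*, *Uqcr11*, *Cycs*, *Cox5a*, *Cox6a2*, *Cox6b1*, *Cox6c*, *Cox7a2l*, *Cox7c* and *Ndufa4*. *Sdha* and *Uqcrc2* fell in all 4. *Sdhc* changed direction with time, and *Uqcrc1*, *Cox6a1* and *Cox7a1* passed the test in none. The other 10 passed it in some comparisons and always in the same direction. The 4 comparisons use separate nerves, except that the healthy and injured nerve often came from the same mouse. How many of all tested genes were called alike in all 4 was not counted. These numbers of members therefore have no background and are a description. *Cox6a2* passed the filter on low counts only through injured nerves, so its calls carry that selection.

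**Figure D1:**
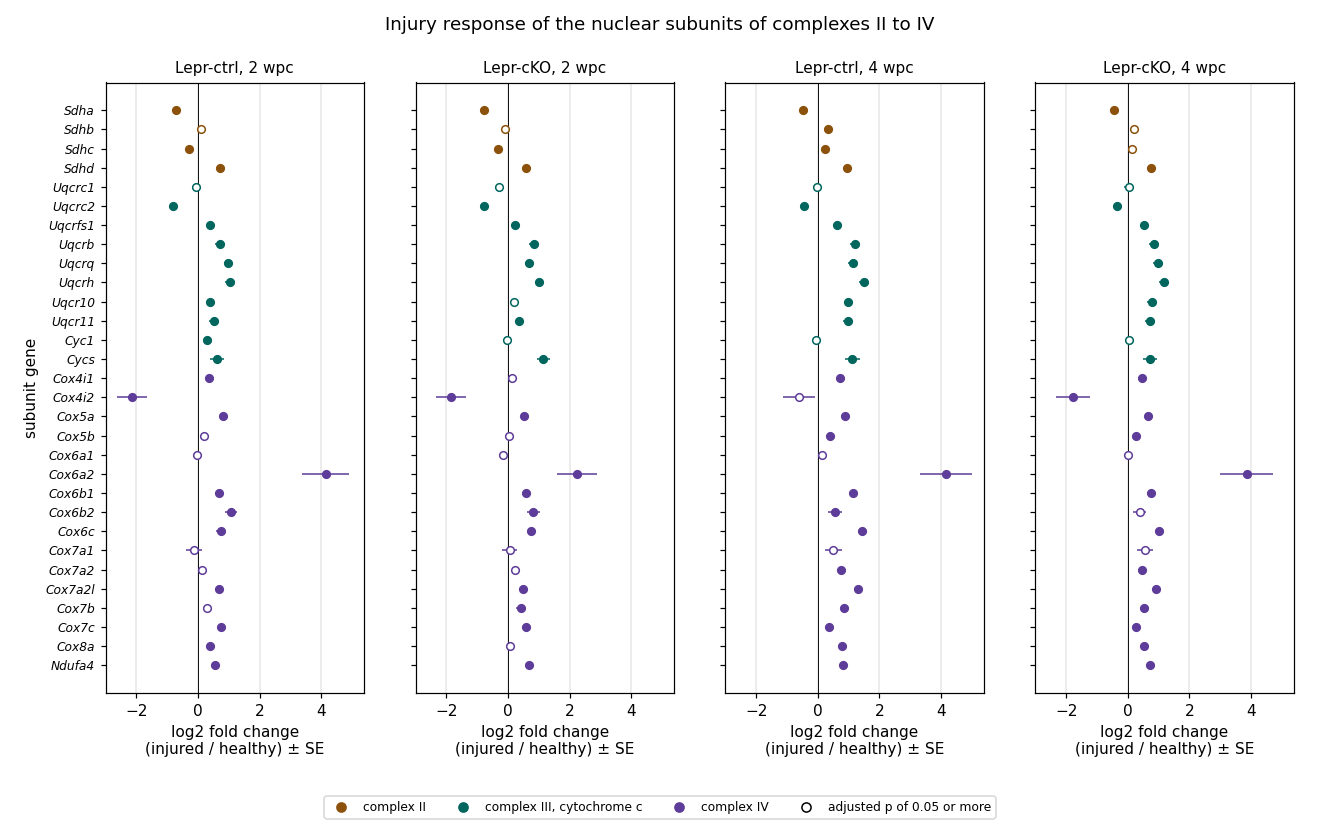
Log2 fold change of injured over healthy nerves (x axis, ± SE) for the 30 tested subunit genes (y axis) in the 4 injury comparisons. Filled points passed an adjusted p of 0.05, and most lie right of 0, with *Sdha*, *Uqcrc2* and *Cox4i2* to the left.

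Complex II had members that moved in opposite directions. Its catalytic subunit fell in all 4 injury comparisons while a membrane anchor rose. *Sdha*, the flavoprotein that oxidizes succinate (ENSMUSG00000021577, chromosome 13 from 74322254 to 74350280, minus strand), was at 297, 279.7, 273, 301 and 288 CPM in healthy and 149.5, 215, 152.4, 151.6 and 199 CPM in injured *Lepr*-ctrl nerves at 2 wpc. In the same cohort, it was at 256 to 294 (median 282) CPM in healthy and 155.96, 160.8, 182 and 157.98 CPM in injured *Lepr*-cKO nerves. The injured and healthy nerves did not overlap in either genotype (log2 fold change -0.73 ± 0.09, adjusted p = 1.06e-08 in *Lepr*-ctrl, and -0.77 ± 0.09, adjusted p = 9.29e-09 in *Lepr*-cKO). At 4 wpc, *Sdha* was at 299.7, 270.2, 292, 262 and 268 CPM in healthy and 194, 204, 198 and 208 CPM in injured *Lepr*-ctrl nerves. Its *Lepr*-cKO levels at that time were 316, 267, 287, 256 and 289 CPM in healthy and 241, 195, 192 and 209.9 CPM in injured nerves, again without overlap (-0.47 ± 0.09, adjusted p = 5.94e-05, and -0.43 ± 0.09, adjusted p = 0.000222).

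*Sdhd*, a membrane anchor that helps to bind ubiquinone (ENSMUSG00000000171, chromosome 9 from 50596357 to 50603812, minus strand), went the other way. It was at 58.2, 54, 52.7, 54.1 and 51.4 CPM in healthy and 72.8, 99.6, 102, 78 and 94.1 CPM in injured *Lepr*-ctrl nerves at 2 wpc, and at 50.3 to 56.7 (median 53) CPM in healthy and 75, 81.4, 78.1 and 84.6 CPM in injured *Lepr*-cKO nerves. At 4 wpc, the values were 54.4, 46, 48.4, 51.3 and 46 CPM in healthy and 90.7, 102, 97.7 and 85.3 CPM in injured *Lepr*-ctrl nerves, and 49.9, 50.4, 47.7, 55.5 and 51.2 CPM in healthy and 75.2, 89.8, 87.6 and 92.2 CPM in injured *Lepr*-cKO nerves. All 17 injured nerves lay above all healthy nerves of their group. The log2 fold change of *Sdhd* was 0.72 ± 0.08, adjusted p = 1.15e-09 in *Lepr*-ctrl and 0.58 ± 0.08, adjusted p = 1.33e-07 in *Lepr*-cKO at 2 wpc, and 0.93 ± 0.08, adjusted p = 1.77e-11 and 0.76 ± 0.08, adjusted p = 2.85e-09 at 4 wpc. The ratio of *Sdhd* to *Sdha* CPM, which was chosen after the values were seen and is given with no test, was 0.158 to 0.216 in the 21 healthy nerves and 0.312 to 0.666 in the 17 injured nerves.

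The second anchor, *Sdhc* (ENSMUSG00000058076, chromosome 1 from 171127165 to 171150603, minus strand), was at 137.1, 119.9, 117, 123.1 and 139.3 CPM in healthy and 102, 107, 98.7, 109 and 103 CPM in injured *Lepr*-ctrl nerves at 2 wpc and fell (-0.29 ± 0.08, adjusted p = 0.00218). It also fell in *Lepr*-cKO nerves, with 120.3 to 127.2 (median 123.3) CPM in healthy and 107, 103, 94 and 94.9 CPM in injured nerves (-0.31 ± 0.08, adjusted p = 0.00157). At 4 wpc, the level of *Sdhc* was 132.7, 104, 91.3, 108 and 116 CPM in healthy and 114, 139.02, 132.6 and 127.8 CPM in injured *Lepr*-ctrl nerves, a rise (0.22 ± 0.09, adjusted p = 0.0267) with overlap of the groups that missed the threshold without healthy nerve WT-170Snc or WT-171Snc or injured nerve WT-171Sni or WT-173Sni (adjusted p from 0.0569 to 0.109). The *Lepr*-cKO nerves of that time had 112, 101, 107, 121.7 and 119.8 CPM in healthy and 112, 141.4, 130.1 and 113 CPM in injured nerves, which did not pass (0.14 ± 0.09, adjusted p = 0.161). *Sdhb*, the iron-sulfur subunit, passed in *Lepr*-ctrl nerves at 4 wpc and in none of the other 3 comparisons (0.33 ± 0.10, adjusted p = 0.00432), and whether its response differed between the genotypes was tested without a call (-0.14 ± 0.14, adjusted p = 0.711).

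In complex III, most accessory subunits and the Rieske protein rose, while the core subunits fell or did not pass. *Uqcrh*, the acidic hinge protein that helps cytochrome c to dock (ENSMUSG00000063882, chromosome 4 from 116066965 to 116075071, minus strand), was at 84.4, 83.7, 72.9, 76.3 and 79 CPM in healthy and 126.2, 176.6, 184, 165.5 and 154.4 CPM in injured *Lepr*-ctrl nerves at 2 wpc. Its *Lepr*-cKO levels were 78.2 to 84.8 (median 81.8) CPM in healthy and 169.2, 163.8, 127.6 and 193 CPM in injured nerves. *Uqcrh* thus separated completely at 2 wpc (1.02 ± 0.14, adjusted p = 8.42e-08 in *Lepr*-ctrl, 1.00 ± 0.14, adjusted p = 1.22e-07 in *Lepr*-cKO). At 4 wpc, it was at 76.5, 56.8, 59.1, 65.9 and 68.3 CPM in healthy and 175.4, 191, 203 and 164.5 CPM in injured *Lepr*-ctrl nerves (1.49 ± 0.15, adjusted p = 1.31e-10). *Uqcrh* in *Lepr*-cKO nerves at 4 wpc was at 64.5, 64.5, 59.3, 93.1 and 64 CPM in healthy and 90.5, 192, 167.7 and 168.8 CPM in injured nerves (1.16 ± 0.15, adjusted p = 3.92e-08), where injured nerve KO-169Sni (90.5 CPM) fell below healthy nerve KO-177Snc (93.1 CPM).

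*Uqcrq*, a small subunit beside cytochrome b (ENSMUSG00000044894, chromosome 11 from 53427922 to 53430831, minus strand), was at 41.6, 39.8, 33.9, 33.1 and 45.9 CPM in healthy and 68, 75.7, 72.3, 93.2 and 72.4 CPM in injured *Lepr*-ctrl nerves at 2 wpc. The *Lepr*-cKO nerves had 38.1 to 44.6 (median 42.4) CPM (healthy) and 68.7, 76.9, 55.9 and 69.9 CPM (injured). No injured nerve overlapped a healthy nerve of its group, with log2 fold changes of 0.98 ± 0.13, adjusted p = 4.17e-08 and 0.69 ± 0.13, adjusted p = 1.78e-05. At 4 wpc, *Uqcrq* was at 45.7, 34.8, 36.5, 43.8 and 40.7 CPM in healthy and 82.2, 96.9, 99.1 and 73.5 CPM in injured *Lepr*-ctrl nerves, and at 37.3, 34.6, 28.7, 48.5 and 38.8 CPM in healthy and 56.8, 94.2, 73.7 and 69.1 CPM in injured *Lepr*-cKO nerves. These were rises of 1.13 ± 0.13, adjusted p = 7.21e-09, and 0.97 ± 0.13, adjusted p = 2.48e-07, again without overlap. *Uqcrb* had log2 fold changes of 0.71 and 0.84 at 2 wpc and 1.22 and 0.85 at 4 wpc, *Uqcr11* of 0.52 and 0.37 at 2 wpc and 0.97 and 0.72 at 4 wpc, and *Uqcrfs1*, the Rieske iron-sulfur protein, of 0.38 and 0.21 at 2 wpc and 0.63 and 0.52 at 4 wpc, all called. *Uqcr10* rose in 3 of 4 comparisons (0.38 and 0.21 at 2 wpc and 0.98 and 0.77 at 4 wpc, not called in *Lepr*-cKO at 2 wpc). With the mouse as a block, *Uqcr10* in *Lepr*-ctrl at 2 wpc (adjusted p = 0.0691) and *Uqcrfs1* and *Uqcr11* in *Lepr*-cKO at 2 wpc (adjusted p = 0.0632 and 0.0671) no longer passed, and each was also lost with 3 single injured libraries of its group left out in turn (adjusted p from 0.0528 to 0.132).

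The core proteins of complex III, which descend from a processing peptidase and carry no redox centre, behaved otherwise. *Uqcrc2* (ENSMUSG00000030884, chromosome 7 from 120635176 to 120659524, plus strand) was at 100.3, 113, 99.6, 113 and 103 CPM in healthy and 49.6, 77.6, 55.5, 46.8 and 74.9 CPM in injured *Lepr*-ctrl nerves at 2 wpc. Levels in *Lepr*-cKO mice were 93.4 to 104 (median 102) CPM in healthy and 51, 57.7, 78 and 48.4 CPM in injured nerves, a fall without overlap in each genotype (-0.80 ± 0.13, adjusted p = 1.27e-06, and -0.77 ± 0.13, adjusted p = 4.01e-06). At 4 wpc, *Uqcrc2* was at 96.5, 83.2, 91.9, 81.4 and 93.5 CPM in healthy and 64.9, 66.2, 60.2 and 71.2 CPM in injured *Lepr*-ctrl nerves, and at 103, 85.4, 86.9, 72 and 89.3 CPM in healthy and 83.1, 57.4, 59 and 73.6 CPM in injured *Lepr*-cKO nerves (-0.44 ± 0.13, adjusted p = 0.00432, and -0.35 ± 0.13, adjusted p = 0.0233). The *Lepr*-cKO groups overlapped at 4 wpc, and their call was lost without healthy nerve KO-169Snc or injured nerve KO-175Sni or KO-176Sni (adjusted p from 0.0755 to 0.102).

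*Uqcrc1* (ENSMUSG00000025651, chromosome 9 from 108936633 to 108949623, plus strand) did not pass in any injury comparison. It was at 35.4, 33.5, 29.3, 28.3 and 39.4 CPM in healthy and 35.1, 35.8, 25.1, 29.2 and 34.8 CPM in injured *Lepr*-ctrl nerves at 2 wpc and at 41.7, 32.4, 33.4, 34.9 and 36.7 CPM in healthy and 36.6, 39.9, 32.7 and 31.7 CPM in injured *Lepr*-ctrl nerves at 4 wpc. *Uqcrc1* in *Lepr*-cKO mice was at 30 to 38.6 (median 36.4) CPM in healthy and 28.1, 30.8, 34.7 and 22.6 CPM in injured *Lepr*-cKO nerves at 2 wpc and at 39.8, 34.3, 34.5, 31.5 and 38 CPM and 49.2, 29.8, 27.4 and 38.5 CPM at 4 wpc. The groups overlapped throughout, with log2 fold changes of -0.05 and -0.30 at 2 wpc and -0.02 and 0.03 at 4 wpc.

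*Cyc1*, the heme-bearing cytochrome c1 that reduces cytochrome c (ENSMUSG00000022551, chromosome 15 from 76343523 to 76346260, plus strand), was at 70.4, 67.5, 60.1, 62.9 and 87.4 CPM in healthy and 101, 76, 80.4, 87.7 and 77.5 CPM in injured *Lepr*-ctrl nerves at 2 wpc, a rise (0.28 ± 0.10, adjusted p = 0.0139) with overlap that was lost without injured nerve SLRKO2wpc123i (adjusted p = 0.124), the highest of its group, and also without healthy nerve SLRKO2wpc130c (adjusted p = 0.0532) or injured nerve SLRKO2wpc147i (adjusted p = 0.054). It was at 57.5 to 83.7 (median 76.8) CPM in healthy and 72.7, 76.6, 78.5 and 65.1 CPM in injured *Lepr*-cKO nerves (-0.03 ± 0.10, adjusted p = 0.803). At 4 wpc, *Cyc1* was at 84.2, 72.7, 68.5, 78.1 and 80 CPM in healthy and 71.7, 75.4, 75 and 74.3 CPM in injured *Lepr*-ctrl nerves, and at 81.2, 73.8, 71.3, 76.5 and 78.6 CPM in healthy and 92.6, 74.5, 68.3 and 76.1 CPM in injured *Lepr*-cKO nerves, with log2 fold changes of -0.05 and 0.03 and no call.

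*Cycs*, somatic cytochrome c, the mobile carrier between complexes III and IV (ENSMUSG00000063694, chromosome 6 from 50562563 to 50566538, minus strand), was counted at a low level. It was at 3.41, 3.65, 2.91, 3.25 and 2.04 CPM in healthy and 4.71, 4.86, 4.89, 4.5 and 4.49 CPM in injured *Lepr*-ctrl nerves at 2 wpc (0.62 ± 0.22, adjusted p = 0.0137). The *Lepr*-cKO levels of *Cycs* were 2.24 to 4 (median 2.87) CPM and 7.62, 5.34, 3.6 and 9.32 CPM (1.15 ± 0.22, adjusted p = 2.26e-05). At 2 wpc, the groups overlapped only in *Lepr*-cKO, where injured nerve SLRKO2wpc135i (3.6 CPM) lay below the highest healthy nerve. At 4 wpc, *Cycs* was at 2.64, 2.19, 1.69, 1.72 and 2.01 CPM in healthy and 4.18, 3.97, 6.17 and 3.36 CPM in injured *Lepr*-ctrl nerves, and at 3.14, 1.97, 1.76, 2.35 and 2.51 CPM in healthy and 2.65, 5.32, 4.35 and 3.24 CPM in injured *Lepr*-cKO nerves (1.12 ± 0.24, adjusted p = 0.000125, and 0.72 ± 0.24, adjusted p = 0.00914). The call in *Lepr*-cKO at 4 wpc was lost without injured nerve KO-175Sni (adjusted p = 0.072), and that in *Lepr*-ctrl at 2 wpc reached an adjusted p of 0.05 without healthy nerve SLRKO2wpc147c. Of all 50-base windows of its principal transcript, 28.5% also occur in transcripts of other genes, so reads may have been lost or shared. Among the other members, the highest shares were 53% for *Cox7c*, 43.4% for *Uqcrb*, 32% for *Cox5a*, 25.9% for *Cox5b*, 24.8% for *Uqcrc2*, 19.8% for *Cox7a2l* and 14.7% for *Cox4i1*. Over the 39 libraries, the genes that share windows held 2973037 counts beside 4020 of *Cycs*, and 80809 beside 254624 of *Cox4i1*. They held at most 1140 (for *Cox5a*) beside each of the others named.

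Promoters were searched because many genes of these complexes share regulators. Of the 31 members, 22 had a 300-base promoter (250 bases before to 50 after the start) in the RefSeq table for GRCm38.p6. The letters GCGCATGCG, a form of the site of nuclear respiratory factor 1, stood on either strand in 4 of these 22 (*Cox6a1*, *Cycs*, *Uqcr11* and *Uqcrc1*), against 1.75% of the 32851 promoters in the table. CCGGAAG, a core of the sites of ETS factors such as GABP (nuclear respiratory factor 2), stood in 7 of 22 (*Cox6a1*, *Cox6b1*, *Cox8a*, *Sdhb*, *Sdhd*, *Uqcr11* and *Uqcrh*), against 8.86%. AAGATGGC, a form of the YY1 site, stood in 0 of 22 (2.75%), and TCAAGGTCA, a form of the ESRRA site, in 1 (*Sdhd*, 0.423%). These searches overlap in *Uqcr11* and *Cox6a1*, which hold both of the commoner motifs. Stretches of 100 bases before the start are shown for 2 members that rose in all 4 injury comparisons and for 1 that passed in none, 5′ to 3′ on the gene's strand, with matches to the 4 motifs in capitals. They lie at chr6:50566580-50566679 (*Cycs*), chr10:80406832-80406931 (*Uqcr11*) and chr5:115349069-115349168 (*Cox6a1*), all on the minus strand of GRCm38.p6.
Cycs: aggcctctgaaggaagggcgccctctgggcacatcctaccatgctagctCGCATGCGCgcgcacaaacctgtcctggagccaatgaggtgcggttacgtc
Uqcr11: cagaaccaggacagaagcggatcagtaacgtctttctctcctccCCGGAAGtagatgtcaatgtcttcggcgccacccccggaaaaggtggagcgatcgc
Cox6a1: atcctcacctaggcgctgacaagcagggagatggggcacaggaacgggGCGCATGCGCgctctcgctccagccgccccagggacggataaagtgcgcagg

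*Cycs* and *Cox6a1* both show the GCGCATGCG letters (in *Cycs* on the opposite strand, in *Cox6a1* as a palindrome read on both), yet *Cycs* rose in all 4 comparisons and *Cox6a1* had log2 fold changes from -0.16 to 0.13. In *Uqcr11*, the capitals mark CCGGAAG, and its GCGCATGCG match overlaps the start site outside the stretch shown. A match is a description of letters and not a measured site.

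Of the 16 tested members of complex IV, 10 rose and 1 fell in *Lepr*-ctrl at 2 wpc (35.1% higher and 30.7% lower over all genes). At 4 wpc, 13 rose and 0 fell in *Lepr*-ctrl (32.7% and 32.3%). In *Lepr*-cKO, 9 rose and 1 fell at 2 wpc (35.4% and 29.6%), and 12 rose and 1 fell at 4 wpc (30.2% and 27.1%). *Cox7a2l*, which is related to subunit VIIa (ENSMUSG00000024248, chromosome 17 from 83501918 to 83517330, minus strand), was at 59.7, 62.6, 53.4, 53.6 and 63.4 CPM in healthy and 75.2, 101, 112, 83.8 and 95.7 CPM in injured *Lepr*-ctrl nerves at 2 wpc (0.68 ± 0.12, adjusted p = 1.56e-05). Levels in *Lepr*-cKO were 51.1 to 67.9 (median 62.8) CPM and 69.3, 98.6, 92.6 and 82.6 CPM (0.48 ± 0.13, adjusted p = 0.00117). All injured nerves lay above all healthy nerves. At 4 wpc, *Cox7a2l* was at 62.5, 52.6, 62.1, 53.3 and 60.8 CPM in healthy and 155.8, 145.7, 119 and 156.7 CPM in injured *Lepr*-ctrl nerves (1.31 ± 0.13, adjusted p = 2.19e-10), and at 56.1, 57.7, 53.8, 57.9 and 58 CPM in healthy and 75.4, 115, 94.7 and 147.2 CPM in injured *Lepr*-cKO nerves (0.93 ± 0.13, adjusted p = 3.48e-07), again without overlap.

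*Ndufa4*, a subunit long listed with complex I and now placed in complex IV (ENSMUSG00000029632, chromosome 6 from 11900292 to 11907497, minus strand), was at 69.2, 59.2, 56.3, 61.9 and 54.8 CPM in healthy and 66.4, 107, 80.5, 90.2 and 96.1 CPM in injured *Lepr*-ctrl nerves at 2 wpc (0.55 ± 0.11, adjusted p = 4.71e-05), where injured nerve SLRKO2wpc123i fell among the healthy nerves. It was at 54.7 to 65.4 (median 59.5) CPM and 103, 87.2, 87.2 and 108 CPM in *Lepr*-cKO nerves (0.68 ± 0.11, adjusted p = 1.76e-06), without overlap. At 4 wpc, its levels were 52.7, 38.7, 38.3, 46.6 and 45 CPM in healthy and 76.3, 81.4, 86.4 and 70.9 CPM in injured *Lepr*-ctrl nerves, and 45.8, 42.5, 40.3, 55.2 and 47.2 CPM in healthy and 63.1, 84.5, 80.2 and 73.8 CPM in injured *Lepr*-cKO nerves. Both groups of injured nerves lay above their healthy nerves (0.83 ± 0.11, adjusted p = 1.34e-07, and 0.71 ± 0.11, adjusted p = 3.6e-06).

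*Cox5a*, which faces the matrix and pairs with subunit IV (ENSMUSG00000000088, chromosome 9 from 57521274 to 57532426, plus strand), was at 25.7, 28.7, 22.7, 23.1 and 26.9 CPM in healthy and 36.7, 53.6, 51.9, 39.8 and 43.3 CPM in injured *Lepr*-ctrl nerves at 2 wpc (0.82 ± 0.11, adjusted p = 9.51e-08). In *Lepr*-cKO, it was at 22.6 to 30.1 (median 26.8) CPM and 32.6, 45, 44.4 and 33.2 CPM (0.53 ± 0.11, adjusted p = 0.000112). No injured nerve overlapped a healthy nerve. At 4 wpc, *Cox5a* was at 27.7, 22.2, 21.3, 22.6 and 23.5 CPM in healthy and 38.3, 45.8, 45.4 and 43.5 CPM in injured *Lepr*-ctrl nerves, and at 25, 21.6, 19.5, 26.5 and 22.5 CPM in healthy and 34.4, 37.5, 33.7 and 40.4 CPM in injured *Lepr*-cKO nerves (0.88 ± 0.12, adjusted p = 8.17e-08, and 0.66 ± 0.12, adjusted p = 1.53e-05), also separate. *Cox6c*, a small membrane subunit (ENSMUSG00000014313, chromosome 15 from 35925886 to 35938246, minus strand), was at 85.5, 73.3, 70.6, 73.1 and 71.6 CPM in healthy and 82.2, 140.7, 152.6, 122.4 and 127.2 CPM in injured *Lepr*-ctrl nerves at 2 wpc, and at 67.5 to 78.1 (median 73.1) CPM and 141.5, 121.6, 105 and 128.2 CPM in *Lepr*-cKO. At 4 wpc, *Cox6c* was at 64.7, 55.3, 46.4, 62.8 and 60.6 CPM in healthy and 151.6, 180.3, 157.1 and 141.3 CPM in injured *Lepr*-ctrl nerves, and at 55.4, 53.5, 50.6, 74.3 and 61.6 CPM in healthy and 75.7, 152.3, 113 and 141.1 CPM in injured *Lepr*-cKO nerves. Its log2 fold changes were 0.74 and 0.76 at 2 wpc and 1.44 and 1.03 at 4 wpc, all called, and injured nerve SLRKO2wpc123i at 2 wpc overlapped the healthy nerves.

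Among the remaining single-form subunits of complex IV, *Cox7c* rose in all 4 comparisons (0.75 and 0.57 at 2 wpc and 0.36 and 0.28 at 4 wpc), *Cox7b* in 3 (0.30 and 0.41 at 2 wpc and 0.86 and 0.53 at 4 wpc, adjusted p = 0.0517 in *Lepr*-ctrl at 2 wpc), and *Cox5b* at 4 wpc in both genotypes (0.20 and 0.04 at 2 wpc and 0.39 and 0.26 at 4 wpc). At 4 wpc in *Lepr*-cKO nerves, the calls of *Cox7c* and *Cox5b* were each lost with 6 of the 9 libraries left out in turn, with log2 fold changes from 0.20 to 0.28. With the mouse as a block, their adjusted p was 0.116 and 0.0509. In *Lepr*-ctrl at 4 wpc, *Cox7c* was lost without injured nerve WT-170Sni (adjusted p = 0.0697).

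**Figure D2:**
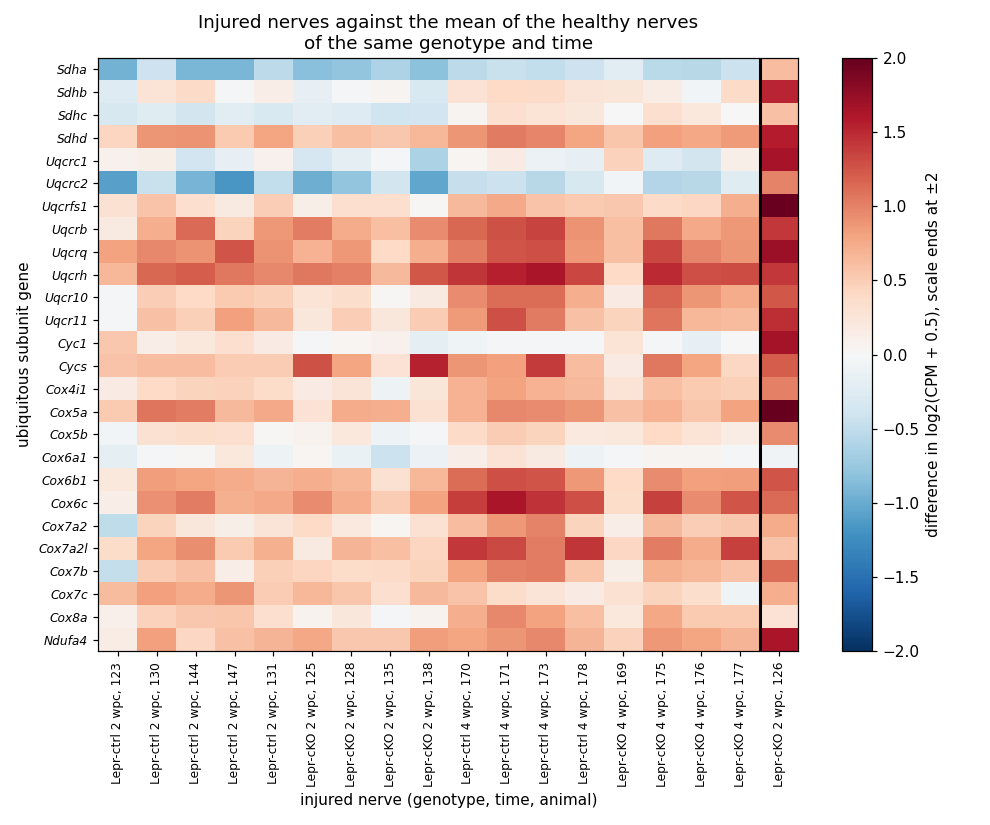
Difference in log2(CPM + 0.5) between each injured nerve (columns) and the mean of the healthy nerves of its genotype and time, for the 26 ubiquitous subunit genes (rows). Most rows are red (higher in injured nerves), *Sdha* and *Uqcrc2* form blue rows, and library SLRKO2wpc126i stands apart right of the line. The column of library KO-169Sni has the lowest median at 4 wpc (0.294), and that of library SLRKO2wpc123i the lowest at 2 wpc (0.141).

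Library by library, the median over the 26 ubiquitous members relative to healthy nerves of the same genotype and time was 0.459 to 0.538 on the log2 scale in 4 *Lepr*-ctrl nerves at 2 wpc and 0.141 in the fifth, library SLRKO2wpc123i. In *Lepr*-cKO nerves at 2 wpc, it was 0.253 to 0.356. At 4 wpc, it was 0.592 to 0.956 in *Lepr*-ctrl and 0.294, 0.706, 0.535 and 0.552 in *Lepr*-cKO nerves, the lowest in library KO-169Sni. The injured nerve of library SLRKO2wpc126i was at 1.22.

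Complex IV isoforms moved in different directions. *Cox4i2*, the isoform of subunit IV known from lung and vascular mural cells (ENSMUSG00000009876, chromosome 2 from 152754173 to 152765037, plus strand), fell, while its ubiquitous partner *Cox4i1* rose or did not change beyond the threshold. *Cox4i2* was at 0.907, 1.21, 1.09, 1.06 and 1.37 CPM in healthy and 0.307, 0.259, 0.0484, 0.184 and 0.423 CPM in injured *Lepr*-ctrl nerves at 2 wpc (-2.14 ± 0.48, adjusted p = 0.0002). *Lepr*-cKO mice had 0.835 to 1.41 (median 1.15) CPM and 0.174, 0.479, 0.486 and 0.0977 CPM (-1.86 ± 0.49, adjusted p = 0.00134). No injured nerve reached a healthy one at 2 wpc. These are 1 to 13 counts per injured and 26 to 55 counts per healthy nerve. *Cox4i2* thus passed the filter on low counts mainly through healthy nerves, and the p-values of its fall carry that selection.

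At 4 wpc, *Cox4i2* was at 0.855, 0.911, 0.533, 0.582 and 0.844 CPM in healthy and 0.261, 1.32, 0.165 and 0.0934 CPM in injured *Lepr*-ctrl nerves, and the group did not pass (-0.62 ± 0.52, adjusted p = 0.297). The exception was injured nerve WT-171Sni with 21 counts, while the 3 others had 1 to 3 counts. The levels of those 3 lay below all healthy nerves of the group. *Cox4i2* in *Lepr*-cKO nerves was at 0.97, 0.913, 0.399, 0.586 and 0.871 CPM and 0.389, 0.164, 0.25 and 0 CPM and fell (-1.76 ± 0.55, adjusted p = 0.00671). Markers of mural cells (pericytes and smooth muscle) fell in the same comparisons, with 0 rising. Of 10 markers, 7, 6, 6 and 7 fell in *Lepr*-ctrl and *Lepr*-cKO at 2 wpc and *Lepr*-ctrl and *Lepr*-cKO at 4 wpc, as listed (30.7%, 29.6%, 32.3% and 27.1% of all genes). Their summed level was 490 to 851 CPM in healthy and 107 to 501 CPM in injured nerves, none of the 10 was at 0 in a whole group, and library WT-171Sni had 459 CPM, the highest of its group. Their part in the fall of *Cox4i2* was not tested.

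*Cox4i1* (ENSMUSG00000031818, chromosome 8 from 120668222 to 120674207, plus strand) was at 223, 211, 176.2, 181 and 238 CPM in healthy and 229.8, 269.5, 278, 280.3 and 263 CPM in injured *Lepr*-ctrl nerves at 2 wpc (0.36 ± 0.10, adjusted p = 0.00137). In *Lepr*-cKO nerves, it was at 186 to 225 (median 215) CPM and 237, 252, 197 and 249.7 CPM and did not pass (0.14 ± 0.10, adjusted p = 0.199). At 4 wpc, *Cox4i1* was at 216, 179.2, 177.5, 185 and 206 CPM in healthy and 311, 338, 312 and 302 CPM in injured *Lepr*-ctrl nerves, and at 192, 188, 182, 251 and 200.2 CPM in healthy and 244, 305, 289 and 281 CPM in injured *Lepr*-cKO nerves, both rises (0.71 ± 0.10, adjusted p = 2.33e-07, and 0.46 ± 0.10, adjusted p = 0.000216). Per kilobase of exon, the share of *Cox4i2* in the pair was 0.186% ± 0.111 (SD, n = 5) in injured and 1.07% ± 0.161 (SD, n = 5) in healthy nerves of *Lepr*-ctrl mice at 2 wpc (two-sided exact permutation test, p = 0.00794). In *Lepr*-cKO mice, the share was 0.269% ± 0.19 (SD, n = 4) in injured and 1.02% ± 0.259 (SD, n = 6) in healthy nerves at 2 wpc (exact p = 0.00952), and 0.147% ± 0.131 (SD, n = 4) in injured and 0.733% ± 0.269 (SD, n = 5) in healthy nerves at 4 wpc (exact p = 0.0159). In *Lepr*-ctrl at 4 wpc, it was 0.274% ± 0.33 (SD, n = 4) in injured and 0.752% ± 0.162 (SD, n = 5) in healthy nerves (exact p = 0.0476, adjusted 0.0952).

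Isoform shares were compared in 5 pairs, 2 genotypes and 2 times, which gave 20 exact permutation tests. After Benjamini-Hochberg adjustment, 8 passed with an adjusted p of 0.0397, and the smallest p that groups of these sizes allow lies between 0.00794 and 0.0159. With the difference of medians in place of means, 0 of 20 passed (the adjusted p of those 8 was 0.0866). All 4 comparisons of *Cox6a2* were among the 8, together with 3 of *Cox4i2* and 1 of *Cox6b2*.

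*Cox6a2*, the heart and muscle isoform of subunit VIa (ENSMUSG00000030785, chromosome 7 from 128205435 to 128206387, minus strand), rose from close to 0 to a trace. Its counts were 1, 4, 0, 0 and 3 in healthy and 26, 18, 42, 15 and 22 in injured *Lepr*-ctrl nerves at 2 wpc, and 3, 0, 0, 2 and 1 and 15, 2, 21 and 7 at 4 wpc. The *Lepr*-cKO counts were 0 to 7 and 27, 11, 8 and 20 at 2 wpc, and 1, 0, 0, 1 and 3 and 10, 7, 3 and 22 at 4 wpc. All injured nerves lay above all healthy nerves in CPM, and the adjusted p (edgeR) was 1.24e-05, 5.48e-05, 0.00346 and 0.000301, respectively. With 0 to 7 counts per healthy nerve, *Cox6a2* passed the filter on low counts only through injured nerves. Its p-values and its place among the members that rose therefore carry that selection and are a description. A fitted fold change from so few counts depends on the prior count and is not given.

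In CPM, *Cox6a2* reached 0.997, 0.584, 2.03, 0.553 and 0.716 in injured *Lepr*-ctrl nerves at 2 wpc and 1.3, 0.126, 1.16 and 0.653 at 4 wpc. The injured *Lepr*-cKO nerves had 0.782, 0.405, 0.324 and 0.651 CPM and 0.353, 0.384, 0.15 and 1.43 CPM. Its share of the pair was 0.797% ± 0.485 (SD, n = 5) in injured and 0.0412% ± 0.0475 (SD, n = 5) in healthy nerves in *Lepr*-ctrl at 2 wpc (exact permutation test, p = 0.00794). The 15 skeletal muscle markers summed to 10.7 to 18.4 CPM in injured and 11 to 20.9 CPM in healthy *Lepr*-ctrl nerves at 2 wpc. Of 13 tested markers, 2 were higher and 2 lower (35.1% and 30.7% of all genes). Library SLRKO2wpc126i, which held muscle RNA, had 60.4% *Cox6a2* in this pair.

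The ubiquitous form *Cox6a1* (ENSMUSG00000041697, chromosome 5 from 115345642 to 115348981, minus strand) passed in no injury comparison. It was at 139.9, 126.8, 110.4, 105 and 164.9 CPM in healthy and 113, 124.2, 129.7, 147.4 and 119 CPM in injured *Lepr*-ctrl nerves at 2 wpc and 182, 156.2, 137.1, 159.9 and 151.1 CPM in healthy and 171.2, 193, 178.1 and 146.7 CPM in injured *Lepr*-ctrl nerves at 4 wpc. *Cox6a1* in *Lepr*-cKO mice was at 117 to 161.1 (median 138.8) CPM and 144.5, 127.4, 104 and 129.8 CPM at 2 wpc, and at 153.1, 144.9, 144.5, 177.6 and 158.3 CPM and 150.9, 161.1, 160.5 and 152.9 CPM at 4 wpc. The groups overlapped in all 4 comparisons.

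*Cox7a1*, the muscle form of subunit VIIa (ENSMUSG00000074218, chromosome 7 from 30184144 to 30186078, plus strand), did not pass either. It was at 5.23, 4.11, 2.78, 3.64 and 4.56 CPM in healthy and 1.34, 4.93, 3.34, 4.39 and 4.52 CPM in injured *Lepr*-ctrl nerves at 2 wpc and 2.56, 2.07, 2.13, 2.64 and 2.37 CPM in healthy and 2.52, 3.4, 4.13 and 3.17 CPM in injured *Lepr*-ctrl nerves at 4 wpc. Levels in *Lepr*-cKO nerves were 2.51 to 4.11 (median 3.73) CPM and 2.95, 3.68, 3.4 and 4.76 CPM at 2 wpc, and 2.41, 3.14, 2.35, 3.64 and 2.99 CPM and 2.51, 6.52, 5.35 and 2.85 CPM at 4 wpc. Healthy and injured nerves overlapped throughout. *Cox7a2*, the ubiquitous form (ENSMUSG00000032330, chromosome 9 from 79755361 to 79759878, minus strand), was at 70, 65, 62.3, 68 and 60.5 CPM in healthy and 45.7, 88.6, 76.4, 70.8 and 77.6 CPM in injured *Lepr*-ctrl nerves at 2 wpc, and at 59 to 69.3 (median 62.6) CPM and 83.8, 72.6, 64.8 and 78.3 CPM in *Lepr*-cKO. At 4 wpc, *Cox7a2* was at 52.4, 40.1, 39.5, 51.3 and 52.4 CPM in healthy and 71.9, 85.8, 93.9 and 64.1 CPM in injured *Lepr*-ctrl nerves, and at 50.1, 46.1, 43.8, 54.6 and 49.7 CPM in healthy and 53.7, 76.8, 68.8 and 70.9 CPM in injured *Lepr*-cKO nerves. It passed at 4 wpc in both genotypes (0.74 ± 0.13, adjusted p = 8.09e-06, and 0.47 ± 0.13, adjusted p = 0.00284), and the 4 wpc response exceeded that at 2 wpc in *Lepr*-ctrl mice (0.60 ± 0.18, adjusted p = 0.0265). At 2 wpc, it did not pass (0.14 ± 0.12, adjusted p = 0.32, and 0.24 ± 0.12, adjusted p = 0.0861), and in *Lepr*-cKO mice the difference between the times did not pass (0.22 ± 0.18, adjusted p = 0.573). The share of *Cox7a1* in the pair was 6.9% ± 0.94 (SD, n = 4) in injured and 8.14% ± 0.498 (SD, n = 5) in healthy nerves in *Lepr*-ctrl at 4 wpc, the nearest of its 4 comparisons to the threshold (exact p = 0.0476, adjusted 0.0952).

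*Cox8b* (ENSMUSG00000025488, chromosome 7 from 140898945 to 140900446, minus strand) was listed at 0 in all 10 healthy *Lepr*-ctrl nerves and had 0 to 13 counts in the other 28 libraries, against 2226 counts in library SLRKO2wpc126i. Its highest values were 0.819 CPM in injured nerve WT-171Sni (*Lepr*-ctrl, 4 wpc) and 0.292 CPM in injured nerve SLRKO2wpc130i (*Lepr*-ctrl, 2 wpc). These nerves also had the highest summed level of 8 adipocyte markers in their groups (256 and 254 CPM, against 2.08 to 211 CPM in the other injured *Lepr*-ctrl nerves), while injured *Lepr*-cKO nerve KO-176Sni, with 309.9 CPM, had 0.15 CPM of *Cox8b*. The part of fat in those counts was not tested. *Cox8a*, the ubiquitous form (ENSMUSG00000035885, chromosome 19 from 7215153 to 7217616, minus strand), was at 114, 106, 87.9, 93.6 and 136.7 CPM in healthy and 114, 147.4, 154.5, 157.2 and 135.1 CPM in injured *Lepr*-ctrl nerves at 2 wpc, and at 95.3 to 130.2 (median 120.7) CPM and 123.03, 136.02, 115 and 121.96 CPM in *Lepr*-cKO. At 4 wpc, *Cox8a* was at 128.2, 102, 92.4, 116 and 107 CPM in healthy and 179.99, 211, 189 and 164.02 CPM in injured *Lepr*-ctrl nerves, and at 106, 105, 92.4, 122.5 and 107 CPM in healthy and 123.1, 181, 152.3 and 153.1 CPM in injured *Lepr*-cKO nerves. It rose except in *Lepr*-cKO at 2 wpc (0.39 and 0.08 at 2 wpc and 0.77 and 0.52 at 4 wpc).

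*Cox6b2*, known as the testis form of subunit VIb (ENSMUSG00000051811, chromosome 7 from 4751792 to 4753094, minus strand), was at 5.74, 4.26, 3.12, 3.61 and 5.76 CPM in healthy and 8.78, 9.53, 7.88, 11.6 and 9.31 CPM in injured *Lepr*-ctrl nerves at 2 wpc (1.07 ± 0.21, adjusted p = 3.81e-05), without overlap. It was at 4.56 to 5.85 (median 4.78) CPM and 8.95, 11.6, 4.65 and 9.64 CPM in *Lepr*-cKO (0.82 ± 0.21, adjusted p = 0.000833), with injured nerve SLRKO2wpc135i among the healthy nerves. At 4 wpc, *Cox6b2* was at 4.83, 3.44, 3.11, 4.63 and 3.44 CPM in healthy and 4.96, 5.29, 7.32 and 5.23 CPM in injured *Lepr*-ctrl nerves (0.55 ± 0.23, adjusted p = 0.0321), a call lost without healthy nerve WT-170Snc, WT-171Snc or WT-178Snc or injured nerve WT-173Sni (adjusted p from 0.0647 to 0.151). It was at 4.74, 3.54, 5.35, 7.54 and 4.48 CPM in healthy and 6.86, 8.44, 6.85 and 4.47 CPM in injured *Lepr*-cKO nerves and did not pass (0.38 ± 0.22, adjusted p = 0.141).

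*Cox6b1*, its ubiquitous partner on the outer face of complex IV (ENSMUSG00000036751, chromosome 7 from 30616861 to 30626151, minus strand), was at 88.5, 84.4, 81.7, 82.9 and 87.4 CPM in healthy and 98.9, 151.9, 147.3, 142.8 and 136.9 CPM in injured *Lepr*-ctrl nerves at 2 wpc, and at 81.9 to 90.3 (median 86.5) CPM and 142.6, 136.1, 107 and 137.3 CPM in *Lepr*-cKO. At 4 wpc, *Cox6b1* was at 77.2, 65.7, 58.6, 77 and 76.5 CPM in healthy and 153.2, 173.7, 168.8 and 129.01 CPM in injured *Lepr*-ctrl nerves, and at 74.2, 71, 68.7, 92.1 and 77.2 CPM in healthy and 101, 147.1, 134.8 and 136.4 CPM in injured *Lepr*-cKO nerves. All injured nerves lay above the healthy nerves, and the log2 fold changes were 0.67 and 0.60 at 2 wpc and 1.14 and 0.76 at 4 wpc. The share of *Cox6b2* in the pair was 2.29% ± 0.381 (SD, n = 4) in injured and 3.37% ± 0.417 (SD, n = 5) in healthy nerves in *Lepr*-ctrl at 4 wpc (exact permutation test, p = 0.0159), a lower share in spite of a higher level, and 4.32% ± 0.827 (SD, n = 5) in injured and 3.25% ± 0.746 (SD, n = 5) in healthy nerves at 2 wpc (exact p = 0.0714).

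**Figure D3:**
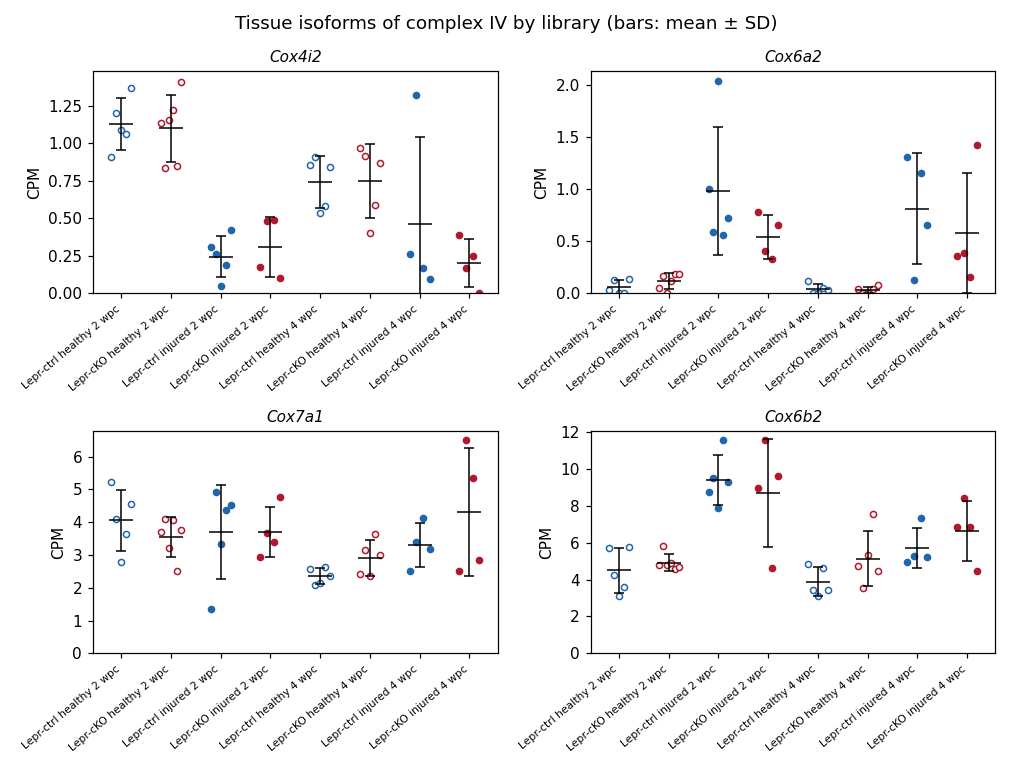
CPM of the tissue isoforms *Cox4i2*, *Cox6a2*, *Cox7a1* and *Cox6b2* (y axes) in the 8 groups (x axis), each point 1 nerve and bars the mean ± SD, without library SLRKO2wpc126i. Injured nerves (filled) lie lower than healthy nerves (open) for *Cox4i2* but for library WT-171Sni at 1.32 CPM, and higher for *Cox6a2*.

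Most of the tested members have short transcripts, and shorter members had the larger median response. In *Lepr*-ctrl mice at 4 wpc, the 18 tested members with a principal transcript under 1000 bases had a median log2 fold change of 0.80, and the 12 longer ones of 0.48. The same split over 14916 protein-coding genes gave 0.67 for 879 short genes and -0.04 for 14037 longer ones. At 2 wpc in *Lepr*-ctrl, the medians were 0.53 and 0.29 for members and 0.50 and 0.04 over coding genes. In *Lepr*-cKO mice, they were 0.45 and 0.09 against 0.45 and 0.03 at 2 wpc, and 0.61 and 0.36 against 0.53 and 0.00 at 4 wpc. Short members thus lay near other short genes. The rank correlation of length with the log2 fold change was -0.29 to -0.33 across the 30 members and -0.16 to -0.27 across coding genes, as a description over genes that share the same libraries. Longer members also rose, *Cycs* (3123 bases), *Uqcrq* (1521 bases), *Uqcrfs1* (1363 bases), *Sdhd* (1231 bases) and *Cox7a2l* (1076 bases) in all 4 comparisons, and the part of length in the contrast between *Sdha* or *Uqcrc2* and the small subunits was not tested.

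**Figure D4:**
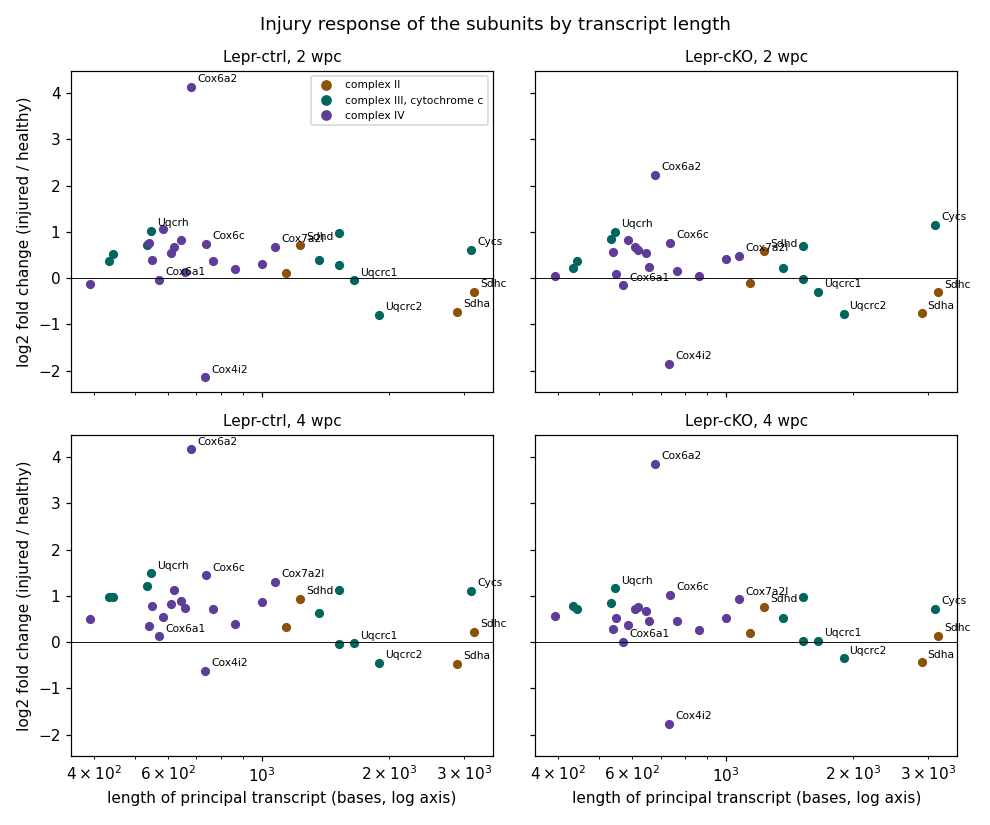
Log2 fold change of injured over healthy nerves (y axis) against the length of the principal transcript (x axis, log scale) for the 30 tested subunit genes in the 4 injury comparisons. *Sdha*, *Uqcrc2*, *Uqcrc1* and *Sdhc* lie low at the long end, *Cycs* and *Uqcrq* are long and rose, and *Cox4i2* and *Cox6a2* lie apart.

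The mitochondrially encoded *mt-Co1* and *mt-Cytb* rose in all 4 injury comparisons. Leaving aside *Cox6a2*, whose fold is not given, their fitted folds were larger than those of the tested nuclear subunits in each comparison. *mt-Co1*, the catalytic subunit of complex IV, was at 5036 to 9968 CPM in healthy nerves, at 19640 to 92960 CPM in injured nerves at 2 wpc, and at 7084 to 57160 CPM at 4 wpc. Its log2 fold change was 2.71 ± 0.39 in *Lepr*-ctrl (edgeR, adjusted p = 2.64e-07) and 3.13 ± 0.38 in *Lepr*-cKO (adjusted p = 1.05e-08) at 2 wpc, and 3.24 ± 0.41 (adjusted p = 2.33e-08) and 1.99 ± 0.39 (adjusted p = 6.43e-05) at 4 wpc. *mt-Cytb* of complex III had log2 fold changes of 2.59, 3.01, 3.19 and 1.98 in the same order. For *mt-Co2* and *mt-Co3*, no library exceeded 2 counts, whereas *mt-Co1* had 125323 or more in each of the 39, so they give no value. Injured nerve KO-169Sni stood apart, with *mt-Co1* at 7084 CPM where the 3 other injured *Lepr*-cKO nerves at 4 wpc had 23416 to 49730 CPM.

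Other nuclear genes of the respiratory chain were read against the share of all genes that rose, 35.1% and 32.7% in *Lepr*-ctrl and 35.4% and 30.2% in *Lepr*-cKO at 2 and 4 wpc. Of 36 tested nuclear subunits of complex I, 16 rose and 6 fell in *Lepr*-ctrl at 2 wpc, and 28 rose and 1 fell at 4 wpc (median log2 fold change 0.21 and 0.40). In *Lepr*-cKO, 16 rose and 6 fell at 2 wpc, and 22 rose and 0 fell at 4 wpc (median 0.20 and 0.33). Of 17 nuclear subunits of complex V, the ATP synthase, 8, 11, 9 and 12 rose and 2 fell in each comparison (*Lepr*-ctrl 2 and 4 wpc, *Lepr*-cKO 2 and 4 wpc). The members of complex III had medians of 0.45 and 0.98 in *Lepr*-ctrl and 0.29 and 0.72 in *Lepr*-cKO at 2 and 4 wpc, and those of complex IV 0.47 and 0.76, and 0.45 and 0.52. Of 24 assembly factors of complex IV, 7 rose and 6 fell in *Lepr*-ctrl at 2 wpc and 9 rose and 3 fell at 4 wpc (median 0.12 and 0.20), and in *Lepr*-cKO 8 rose and 5 fell, and 9 rose and 2 fell, so that the assembly factors that rose were near the share over all genes. These lists were described and not tested against each other.

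Between the genotypes, no member passed the test. In injured nerves at 4 wpc, 1.79% of all genes differed. There, 24 of 30 members had a lower fitted level in *Lepr*-cKO, while 52.4% of all genes had a higher one. The median log2 difference of the members (*Lepr*-cKO minus *Lepr*-ctrl) was -0.21 against 0.02 over all genes. By transcript length, it was -0.22 for the 18 short members and -0.09 for the 12 longer ones. Over protein-coding genes, it was -0.15 for the 879 short and 0.03 for the longer ones. Nuclear subunits of complexes I and V had medians of -0.103 and -0.175. The part of length was not tested. The members were measured in the same few libraries, so the count of 24 is a description and not a test. DESeq2 also called 0 members, and 5 members had an unadjusted p under 0.05 in edgeR (6 in DESeq2), a smaller share than the 21.2% of all genes in edgeR. In the same comparison, the median log2 difference was -0.74 over the 10 macrophage, -0.45 over the 8 endothelial, 0.74 over the 8 myelinating Schwann cell and 1.46 over the 5 erythrocyte markers, with 0 markers of these lists called, and their part in the members' values was not tested. The lowest p belonged to *Cox7a2l* (-0.42 ± 0.14, adjusted p = 0.0867), with 144.3 ± 17.6 CPM (SD, n = 4) in *Lepr*-ctrl and 108 ± 30.7 CPM (SD, n = 4) in *Lepr*-cKO. Its 4 *Lepr*-ctrl nerves (119 to 156.7 CPM) overlapped 1 of the 4 *Lepr*-cKO nerves, library KO-177Sni (147.2 CPM). *Cox7a2l* passed without library KO-177Sni (-0.60, adjusted p = 0.00489) or without *Lepr*-ctrl nerve WT-173Sni (-0.49, adjusted p = 0.049), and was at -0.27 without library KO-169Sni (adjusted p = 0.333). Next in order were *Cox6c* (-0.39 ± 0.16, adjusted p = 0.153), *Cox8a* (-0.29 ± 0.13, adjusted p = 0.187), *Cox6b1* (-0.27 ± 0.12, adjusted p = 0.197) and *Sdhb* (-0.23 ± 0.11, adjusted p = 0.201).

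For several members, part of the difference lay in 1 nerve. Injured nerve KO-169Sni was the lowest of its group for *Uqcrh* (90.5 CPM against 167.7 to 192), *Cox6c* (75.7 against 113 to 152.3), *Cox7a2l* (75.4 against 94.7 to 147.2) and *Cox6b1* (101 against 134.8 to 147.1). It was the highest for *Sdha* (241 against 192 to 209.9 CPM) and *Uqcrc2* (83.1 against 57.4 to 73.6), so that on these genes it lay nearest to healthy nerves. Its repair Schwann cell markers summed to 1183 CPM, the highest of its group, whose lowest was 324 CPM, and its myelin markers to 73850 CPM, also the highest. Without library KO-169Sni, the genotype difference was -0.05 for *Uqcrh*, -0.21 for *Cox6c* and -0.16 for *Cox6b1*, where with it the values were -0.25, -0.39 and -0.27. Without *Lepr*-ctrl nerve WT-171Sni, the difference in *Cox6c* was -0.32. *Sdhb* in library KO-169Sni (71.3 CPM) lay within the range of the other nerves of its group (57.9 to 78.5 CPM). With single libraries left out in turn, the median genotype difference of the members stayed between -0.256 and -0.13.

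**Figure D5:**
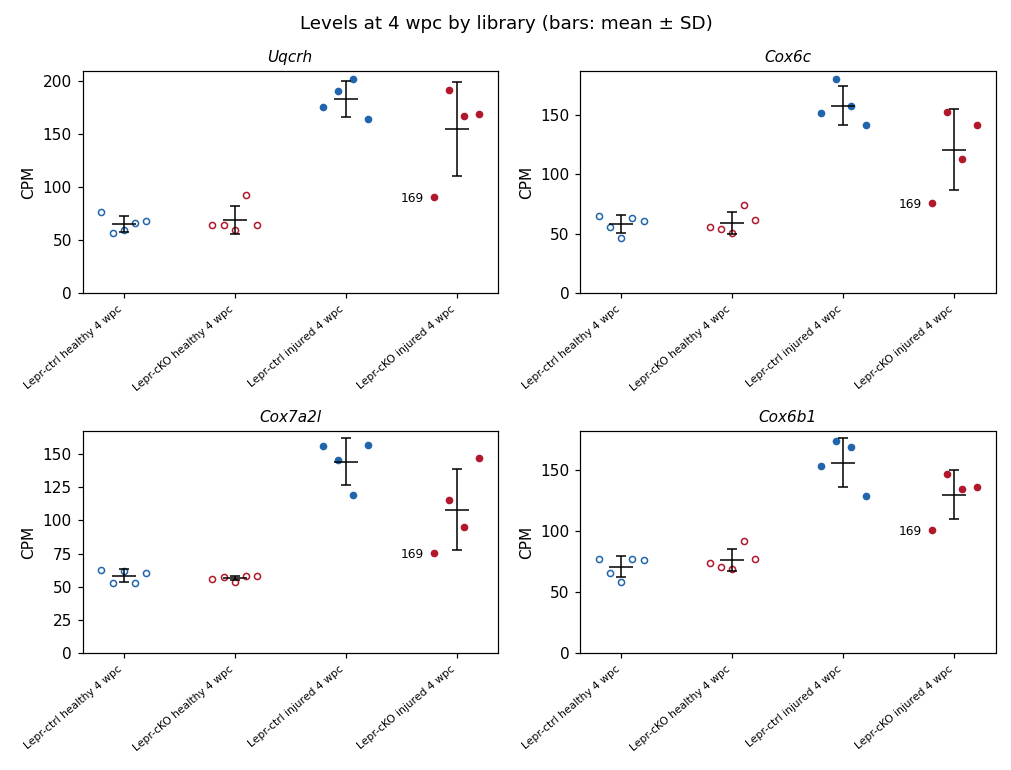
CPM of *Uqcrh*, *Cox6c*, *Cox7a2l* and *Cox6b1* (y axes) at 4 wpc in the 4 groups (x axis), each point 1 nerve and bars the mean ± SD. Injured nerves (filled) lie above the healthy nerves (open) of their genotype except for *Uqcrh* in library KO-169Sni, and the injured *Lepr*-cKO nerve of library KO-169Sni is the lowest injured nerve in each panel.

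In injured nerves at 2 wpc, 0.00544% of genes and no member differed between the genotypes in edgeR, and DESeq2 called 0 members and 4 of all genes. In edgeR, 1 member had an unadjusted p under 0.05, against 5.1% of all genes, and the median of the members was -0.09. *Cycs* had the lowest p (0.47 ± 0.23, adjusted p = 0.943). Healthy nerves gave no call at 2 wpc (0.0109% of genes) or at 4 wpc (0.00544% of genes), with 0 members at an unadjusted p under 0.05 by edgeR or DESeq2 and median differences of 0.05 and 0.03. The response to injury did not differ detectably by genotype for any member at 2 or 4 wpc, and 0% of all genes passed in edgeR at either time. At 4 wpc, the interaction was negative for 25 of 30 members (median -0.19), while it was positive for 53.4% of all genes. Its median there was -0.145 over short protein-coding genes, and -0.115 and -0.169 over nuclear subunits of complexes I and V. The lowest p among the members was that of *Cox6b1* (-0.38 ± 0.16, adjusted p = 0.38). An unadjusted p under 0.05 was held by 2 members in edgeR and in DESeq2, a smaller share than the 11.8% of all genes in edgeR. At 2 wpc, the interaction had a median of -0.15, with 1 member under 0.05 unadjusted in each tool (4.2% of all genes in edgeR). With a median standard error of 0.14 on the log2 scale for a genotype difference in injured nerves at 4 wpc, the groups could not show differences of the size of most of these.

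From 2 to 4 wpc, a few subunits changed in injured nerves. In *Lepr*-ctrl mice, *Cox7a2l* (0.62 ± 0.13, adjusted p = 0.000725), *Cox6a1* (0.44 ± 0.11, adjusted p = 0.00471), *Sdhc* (0.30 ± 0.09, adjusted p = 0.00986), *Cox8a* (0.39) and *Uqcr10* (0.45) were higher at 4 wpc, 5 members against a background of 10.6%, and *Cox6b2* was lower (-0.72 ± 0.23, adjusted p = 0.0197), 1 member against 13.0%. In injured *Lepr*-cKO nerves, *Sdha* (0.35 ± 0.10, adjusted p = 0.0123) and *Sdhc* (0.31 ± 0.09, adjusted p = 0.0153) were higher (8.68% of all genes), and *Cycs* (-0.74 ± 0.24, adjusted p = 0.0323) and *Ndufa4* (-0.35 ± 0.12, adjusted p = 0.0384) were lower (8.93%). Healthy *Lepr*-cKO nerves also had a lower mean of *Ndufa4* at 4 wpc (46.2 CPM) than at 2 wpc (60.1 CPM), and of *Cycs* (2.35 and 2.91 CPM). Their means at 2 and 4 wpc were 279.3 and 283 CPM for *Sdha* and 123.8 and 112.4 CPM for *Sdhc*. Without library KO-169Sni, 6 members were higher and 0 lower in *Lepr*-cKO, and *Cycs* and *Ndufa4* no longer passed (adjusted p = 0.135 and 0.19). These calls were also lost without injured nerve KO-177Sni, SLRKO2wpc125i or SLRKO2wpc138i (adjusted p from 0.0704 to 0.167), and that of *Sdhc* in *Lepr*-cKO without injured nerve KO-175Sni (adjusted p = 0.0788). In *Lepr*-ctrl mice, *Uqcr10* was not called without injured nerve SLRKO2wpc123i or WT-171Sni (adjusted p = 0.0661 and 0.0737), *Cox8a* without the latter (adjusted p = 0.0788), and *Cox6b2* without injured nerve SLRKO2wpc147i, WT-170Sni, WT-171Sni or WT-178Sni (adjusted p from 0.0543 to 0.0608).

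Measured against the healthy nerves of each cohort, the response at 4 wpc exceeded that at 2 wpc for 5 members in *Lepr*-ctrl mice (4.40% of all genes), *Sdhc* (0.51 ± 0.12, adjusted p = 0.00516), *Cox7a2l* (0.63 ± 0.18, adjusted p = 0.021), *Cox6c* (0.70 ± 0.21, adjusted p = 0.0248), *Cox7a2* and *Uqcr10* (0.60 ± 0.20, adjusted p = 0.0446). No member was lower (6.22%; edgeR). In *Lepr*-cKO mice, *Sdhc* alone passed upward (0.45 ± 0.12, adjusted p = 0.0281; 2.36% of genes) and 0 members passed downward (1.03%). With the mouse as a block, *Sdhc* in *Lepr*-cKO (adjusted p = 0.0841) and *Uqcr10* in *Lepr*-ctrl (adjusted p = 0.0772) no longer passed, and the count in *Lepr*-ctrl ranged from 2 to 8 with single libraries left out. Among these fits, the highest adjusted p in *Lepr*-ctrl was 0.0995 for *Uqcr10*, 0.0675 for *Cox6c* and 0.064 for *Cox7a2*, each without injured nerve WT-171Sni, and in *Lepr*-cKO 0.0755 for *Sdhc* without injured nerve KO-175Sni. Healthy *Cox6a1* was 129.4 ± 24.2 CPM (SD, n = 5) at 2 wpc and 157.3 ± 16.5 CPM (SD, n = 5) at 4 wpc in *Lepr*-ctrl mice, and the difference of its response between the times did not pass (0.16 ± 0.16, adjusted p = 0.553).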

How the data were processed

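Bulk RNA-seq of distal sciatic endoneuria gave 39 libraries. The authors sequenced 50-base single reads (demultiplexed with bcl2fastq 2.20.0.422), mapped them to GRCm38 with STAR 2.5 (up to 2 mismatches) and assigned them to genes with featureCounts 1.5.0-p1. The deposited values are raw counts of 55573 genes per library. Strand and multi-mapping settings are not given in the sources used here.

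Counts were analysed with edgeR 4.0.16 (R 4.3.3), after filterByExpr (minimum count 10, total 15) and TMM normalization, in a quasi-likelihood fit with 1 term per group of genotype, injury and time, over 38 libraries. The injured *Lepr*-cKO library SLRKO2wpc126i was left out. Benjamini-Hochberg adjustment ran over all 18394 genes. Isoform shares used two-sided exact permutation tests (scipy 1.17.1). Alternatives were DESeq2 1.42.0, other normalizations and filters, single libraries left out, and the mouse as a block. Healthy and injured nerves were paired by mouse (16 mice, Pearson correlation of deviations -0.118 to 0.567, 14 above 0.1). Each value of a group is from a separate mouse. The main fit and the permutation tests have no term for the mouse, so injury p-values treat both nerves of a mouse as separate. The fit pools its estimate of the spread of a gene over all groups, healthy and injured. The fitting scripts were tested on simulated data. At the lowest total, 3 counts correspond to 0.275 CPM, and such limits cover counting error only.

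The members and lists were chosen with earlier results of these data known. Values of every library (lowest, median and highest in groups over 5) are given for the isoform pairs, for *Sdha*, *Uqcrc1*, *Cyc1*, *Cycs*, *Cox5a*, *Cox7a2l* and *Ndufa4*, and for up to 3 called members per direction with the lowest p in each comparison.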

Additional observations from a re-analysis of the deposited data

Results flagged for a closer look

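Among 240 sets of 1 gene in 1 group, 12 (5%) held a nerve far from the rest of its group. Chance gives about 1 of 20 where sets are independent, which genes of the same nerves are not, and 3 nerves held 2 each. *Uqcrb* was at 10.1 CPM in the healthy *Lepr*-ctrl nerve WT-168Snc at 4 wpc, against 7.99 to 8.47 in the others. Healthy *Lepr*-cKO nerve KO-177Snc at 4 wpc was high for *Uqcrh* (93.1 CPM against 59.3 to 64.6) and *Cox4i1* (251 against 182 to 200.2). Healthy *Lepr*-cKO nerve SLRKO2wpc138c at 2 wpc was low for *Uqcr10* (40.8 CPM against 48.6 to 52.8) and *Uqcr11* (19.9 against 24.5 to 26.8). Injured *Lepr*-ctrl nerve SLRKO2wpc123i at 2 wpc was low for *Uqcr10* (44.8 CPM against 60.9 to 66.5) and *Cox6b1* (98.9 against 136.9 to 151.9). *Cox6b2* was at 5.85 CPM in healthy *Lepr*-cKO nerve SLRKO2wpc126c at 2 wpc (others 4.56 to 4.88) and at 7.32 CPM in injured *Lepr*-ctrl nerve WT-173Sni at 4 wpc (others 4.96 to 5.29). *Cox4i2* was at 1.32 CPM in injured *Lepr*-ctrl nerve WT-171Sni at 4 wpc (others 0.0934 to 0.261). At 2 wpc, healthy *Lepr*-ctrl nerve SLRKO2wpc120c had 85.5 CPM of *Cox6c* (others 70.6 to 73.3), and healthy nerve SLRKO2wpc147c had 10.3 CPM of *Cox7c* (others 8.04 to 8.41).

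The injured *Lepr*-cKO nerve SLRKO2wpc126i, which entered no comparison, had 196 CPM of *Cox6a2*, 50.9 CPM of *Cox7a1* and 62.9 CPM of *Cox8b*. The other injured *Lepr*-cKO nerves at 2 wpc had 0.324 to 0.782, 2.95 to 4.76 and 0 to 0.261 CPM, respectively.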

How the results depend on the processing

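Counts are of members higher and lower. With single libraries left out in turn, the injury counts were 17 to 19 and 4 in *Lepr*-ctrl and 14 to 16 and 4 to 5 in *Lepr*-cKO at 2 wpc, and 21 to 23 and 2 to 3, and 17 to 22 and 2 to 3, at 4 wpc. The courses in injured nerves ranged from 3 to 6 higher and 0 to 1 lower in *Lepr*-ctrl and from 1 to 6 and 0 to 2 in *Lepr*-cKO, the courses of the response from 2 to 8 and 0 to 1, and from 0 to 3 higher, the genotype count in injured nerves at 4 wpc from 0 to 1 lower, and the isoform shares passing from 0 to 8. The last fall was because fewer libraries raise the smallest possible p. With the absolute log2 fold change above 1, the injury counts were 3 and 1, 8 and 0, 3 and 1, and 3 and 1 (*Lepr*-ctrl 2 and 4 wpc, *Lepr*-cKO 2 and 4 wpc), and all 4 courses 0. DESeq2 gave 4 higher in the *Lepr*-cKO course and 8 higher in the *Lepr*-ctrl response course, and its size factors 1 lower in the *Lepr*-cKO course. Without the filter, the courses gave 2 higher (*Lepr*-ctrl) and 0 and 0 (*Lepr*-cKO), and the response courses 1 and 0 higher. With only the groups compared, they gave 2 higher and 0 and 0. With library SLRKO2wpc126i kept, 1 member fell in *Lepr*-ctrl at 4 wpc and 2 in *Lepr*-cKO at 2 wpc, the courses gave 3 higher, and 0 higher and 4 lower, the response courses 3 and 0 higher, and *Cox6a2* reversed to 5.38 between the genotypes in injured nerves at 2 wpc (adjusted p = 0.0112, 1 member higher), as did *Sdha* in the *Lepr*-cKO course (-0.021). With the mouse as a replicate block, the *Lepr*-cKO response course gave 0 higher and 7 calls were lost, each named beside its result, and no other call changed. The difference of medians left 0 isoform shares. Apart from the smallest p, the cause was not tested. Leaving mitochondrially encoded genes out of the normalization changed no call in 227 values. Traces such as *Cox6a2*, with few counts per nerve, are limited by depth.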
